A study of Mus musculus with 4 samples.

Results

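Named pseudogenes are gene copies whose symbol in the mouse nomenclature ends in -ps, with or without a number, after the stem of the gene they copy. The annotation's symbols matched 97.6% of the 39188 single genes in the deposited counts, and 1083 of them carried such a symbol. Of these, 742 had a count of 0 in every library, 116 had a mean count above 0 and under 5, and 225 (20.8%) averaged at least 5 counts over the 4 libraries. Those 225 are described here. They were selected on the counts themselves, so that their being detected is a description and not a finding. Just inside the threshold were Slfn10-ps and Selenok-ps1 with a mean count of 5 each and Rpl35a-ps3 with 5.5, and just outside was Rpl5-ps2 with 4.75.

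Most pseudogenes of this kind are processed: a spliced messenger RNA was copied back into DNA and inserted elsewhere in the genome, without introns and usually without a promoter of its own. Genes that are strongly transcribed in the germ line, ribosomal protein genes above all, have left the most copies. Because a recent copy still matches the exons of its parent, a short sequencing read from the parent's messenger can fit both places, and a read from within a spliced stretch can even align to the intronless copy without a gap. Counts on a pseudogene can therefore be shared with its parent to an extent that depends on the sequence and the aligner.

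RNA-seq had been run on thigh skeletal muscle of wild-type males of the inbred mouse strain C57BL/6J, with 3 libraries at 28 months of age and 1 at 18 months, to check splicing results from exon arrays in the same samples. No genotype, allele or treatment separated the groups. The labels do not say whether each library came from a separate animal, so that p-values measure only the spread between these samples. For the single library at 18 months the spread of the 28-month ones was assumed.

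Bins of exon sequence summed to between 65780464 and 76163175 counts a library, and the 225 pseudogenes took 0.522, 0.469 and 0.479% of them in the 28-month libraries 1, 2 and 3 and 0.607% at 18 months. The second 28-month library stood apart: over 15376 genes the log2 CPM (counts per 1000000 after TMM scaling) correlated at 0.99 between libraries 1 and 3 and at 0.961 and 0.962 between library 2 and those. The 18-month library correlated at 0.976, 0.971 and 0.973 with the 28-month libraries 1, 2 and 3. Libraries 1 and 3 were thus closer to the 18-month library than to library 2. The TMM factor of library 2 was 1.28, against 0.877 to 0.99 in the others. The labels' extraction text describes epidermis, but the 5 muscle markers summed to 78150 to 148344 CPM and the 5 keratinocyte markers to 0.891 to 1.12 CPM, with Krt5 at 0 in every library. The 5 Schwann cell markers, all detected, summed to 90.6 to 173 CPM at 28 months and 301 at 18 months. The 6 macrophage markers, also all detected, summed to 87.3 to 152 CPM at 28 months and 51.9 at 18 months. The 4 lymphocyte markers summed to 76.6, 231 and 81.5 CPM at 28 months and 344 at 18 months, and the 4 adipocyte markers to 2267, 1854 and 2033 CPM at 28 months and 1281 at 18 months. Red blood cell markers reached 3785 CPM in the third 28-month library, against 145 to 378 in the others. The part of these in the results below was not tested, and in bulk tissue fewer cells of a type and less RNA per cell cannot be told apart.

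The detected pseudogenes were mostly retrocopies. The annotation (GENCODE M21 on GRCm38) classed 183 as processed and 8 as transcribed processed pseudogenes, 10 as unprocessed, 10 as transcribed unprocessed and 8 as protein coding. They lay in a single exonic bin in 189 cases. An annotated gene bore the stem symbol for 192. That parent had a count of its own for 167 pseudogenes, which shared 115 parents, and was merged with other genes, often small nucleolar RNAs in its introns, for the other 25. The remaining 33 had no gene of that symbol. By family, 85 copied cytosolic ribosomal proteins and 107 copied other parents. Only 7 lay on the chromosome of their parent. Introns of other genes held 54, exons of other genes overlapped 14, and 157 overlapped neither.

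A few copies held most of the reads. Tpt1-ps3, a copy of the gene for translationally controlled tumor protein, took 24.7% of all counts on the 225, and the 10 most abundant took 51.4%. The median mean count was 156, with 58 at 1000 or more and 47 under 20. Tpt1-ps3 lies on chromosome 6 (GRCm38 chr6:99877816-99878334, minus strand) outside any other gene, and its 519 bases match the Tpt1 transcript at each base. The first 90 coding bases read the same in both genes, as printed here with no capitals because nothing differs (chr6:99878245-99878334):

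Tpt1-ps3: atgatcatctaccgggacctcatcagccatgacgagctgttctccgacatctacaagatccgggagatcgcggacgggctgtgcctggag

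Tpt1-ps3 had 1467, 900.2 and 1302 CPM in the 28-month libraries and 1533 at 18 months. Raw counts on Tpt1 itself were 6010, 1307 and 3330 at 28 months and 2306 at 18 months, against 97953, 87783, 78565 and 99819 on the copy. The 18-month library was the highest for the copy and inside the range of the others for the parent, which spread much more. On the scale of CPM per kb of exon the pseudogene was above its parent in each library, at 1734 to 2954 against 5.63 to 37.8. The pseudogene held 94.2, 98.5 and 95.9% of the counts of the pair at 28 months and 97.7% at 18 months. The exact (Clopper-Pearson) 95% interval of the first share, which covers counting error only, was 94.1 to 94.4%.

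Detection went with identity to the parent. Of the 1083, those whose parent averaged at least 10 counts and which aligned to its transcript were sorted by identity. At a mean count of at least 5 were 2 of 71 under 90% identity, 18 of 95 between 90 and 95%, 22 of 48 between 95 and 97%, 18 of 36 between 97 and 98%, 36 of 53 between 98 and 99%, 27 of 32 between 99 and 99.5%, and 43 of 47 (91.5%) above that. The median identity was 98.7% among the detected, 96.7% among those at a mean above 0 and under 5, and 91.3% among those at 0. The parents' level differed too, with median parent counts of 2017, 674 and 508 in the same order. Neither pattern was tested, since detection was the rule of choice. The most diverged of the detected were Rpl36a-ps3 at 87.5% and Bambi-ps1 at 88.6%, and the longest stretch they shared with the parent without a mismatch was 24 and 46 bases. Rpl36a-ps3 is among 5 copies whose closest coding gene is not the one of its stem, its closest being Rpl36al at 99.7% identity. Over the 191 that aligned, this stretch had a median of 200 bases and reached 1122, and in 166 it was at least 100.

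From 90% identity upward, the level relative to the parent was higher in the bins of higher identity. Across the 166 aligned pairs whose parent had a count of its own, identity and the log2 ratio of pseudogene to parent in counts per kb had a Spearman correlation of 0.684, a description over genes that share libraries and, in part, parents. The median log2 ratio per kb was -5.11 between 90 and 95% identity, -4.39 between 95 and 97%, -3.43 between 97 and 98%, -0.28 between 98 and 99%, 2.01 between 99 and 99.5% and 2.36 above. Under 90% there were only 2 pairs, Rpl36a-ps3 and Bambi-ps1, which went against this with log2 ratios per kb of 4.33 and 1.97, above the parent in all 4 libraries. Per kb the pseudogene was above its parent in all 4 libraries in 72 of 167 pairs (43.1%), below it in all 4 in 89, and mixed in 6. Lengths were the union of annotated exons, which for a parent includes introns retained in minor transcripts, and a read across several bins of a parent may count in each. Both act on the parent and hardly on a copy in 1 bin.

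**Figure D1:**
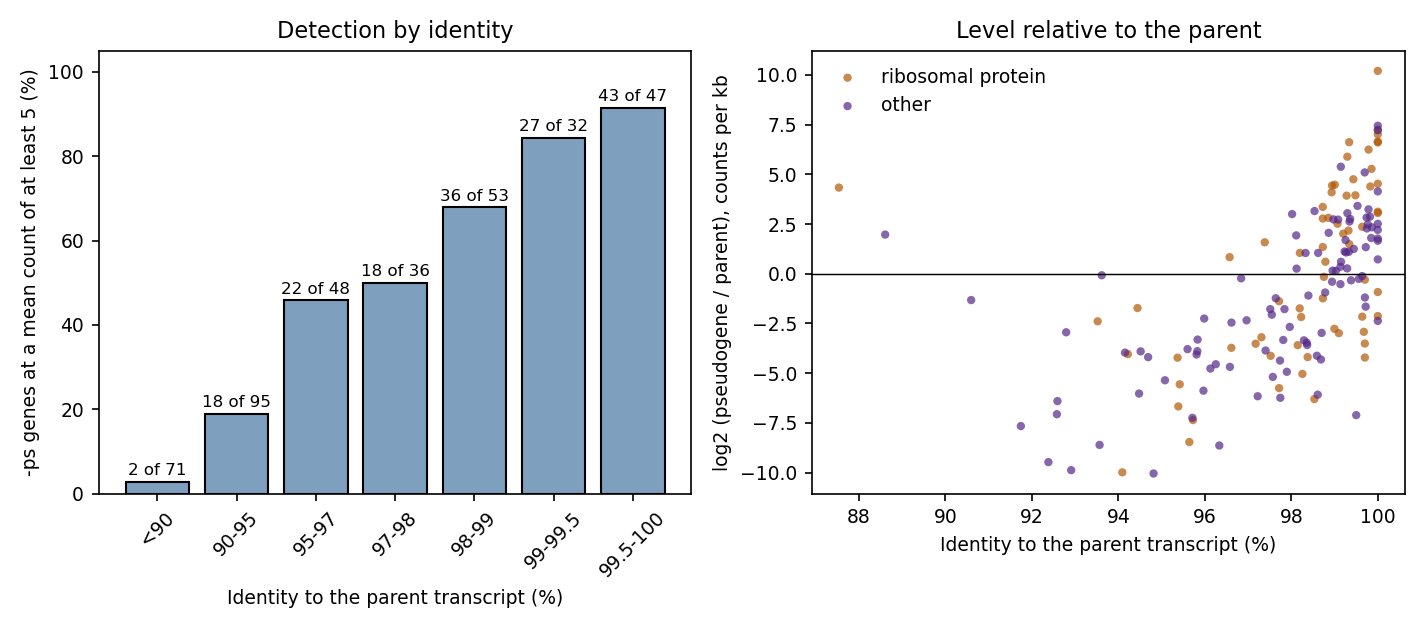
Left, the share of -ps genes with a mean count of at least 5 (%, bars from 0, numbers of genes above each) by identity to the parent transcript (%). Right, each point is 1 of 166 pairs, with identity (%) on the x axis and the log2 ratio of pseudogene to parent in counts per kb, averaged over the 4 libraries, on the y axis. Bars climb from 2 of 71 to 43 of 47, and most points above 99% identity lie above the line at 0, where both levels are equal.

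Among the ribosomal protein copies, 9 of the 12 most abundant pseudogenes with a parent count of their own, the pseudogene carried most of the pair's counts. Rps6-ps4 copies the 40S subunit protein S6, a target of growth signalling. It lies in an intron of 2600014E21Rik (GRCm38 chr2:75191073-75191822) and is identical to the Rps6 transcript over 750 bases. Rps6-ps4 had 169, 113.7 and 169 CPM at 28 months and 207 at 18 months, and Rps6 had 15.5, 9.87, 14.4 and 21.6 CPM in the same order. The 18-month library was the highest for both genes, and the log2 differences (28 minus 18 months, negative where 28 months is lower) were -0.46 ± 0.35 (SE) for the pseudogene and -0.71 ± 0.34 for the parent. Rpl31-ps8, identical to its 60S parent over 378 bases, had 148, 66.3 and 123 CPM at 28 months and 118 at 18 months, and Rpl31 had 2.57 to 6.64. Rpl39-ps, a copy of the gene of another 60S protein, had 160.4, 85.3 and 134 CPM at 28 months and 124 at 18 months. For these copies of Rpl31 and Rpl39 the 18-month library fell inside the range of the others.

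Rpl14-ps1, in an intron of the cation channel gene Trpm4, had 199, 126 and 188 CPM at 28 months and 213 at 18 months, and its parent was counted 1562 to 2141 times where the copy was counted 11329 to 13862 times. Rpsa-ps10 copies the 40S protein that also acts as a laminin receptor, and had 235, 82.7 and 219 CPM at 28 months and 173 at 18 months. Rpl18-ps2 had 157, 64.0 and 148 CPM at 28 months and 107 at 18 months. The second 28-month library was the lowest of the 4 for each of these copies, and the 18-month library lay above all others for Rpl14-ps1 and inside their range for Rpsa-ps10 and Rpl18-ps2. Rps24-ps3, on the X chromosome, had 157, 126 and 149.8 CPM at 28 months and 163 at 18 months, while Rps24 had 121, 92.6 and 112 CPM at 28 months and 92.6 at 18 months. Rps25-ps1 had 118, 71.4 and 99.3 CPM at 28 months and 101 at 18 months. None of these 9 passed the test between ages (edgeR quasi-likelihood test with Benjamini-Hochberg adjustment over all genes, smallest adjusted p = 0.868), and their log2 differences ran from -0.46 to 0.20.

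Between the ages no pseudogene passed. The edgeR quasi-likelihood test was run on 15376 genes with a mean count of at least 10, called 0 of them (0%) at an adjusted p under 0.05, and left 753 (4.9%) at an unadjusted p under 0.05. It covered 195 of the 225 pseudogenes, the other 30 being under that count. Of the 195, 0 were called and 12 had an unadjusted p under 0.05, with 11 lower at 28 months (all genes 2.36%) and 1 higher (all genes 2.54%). DESeq2 called 31 genes (0.202%) and 0 pseudogenes. Its unadjusted p was under 0.05 for 891 of 15376 genes and for 9 of the 195 pseudogenes.

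The log2 differences of the pseudogenes leaned to the negative side without passing. Their median was -0.37, against 0.06 over all genes tested, and 146 of 195 (74.9%) were negative, against 45.6% of all genes. The 18-month CPM lay above all 28-month values in 108 (55.4%), against 26.4% of all genes, and below all of them in 11 (5.64%), against 25.4%. With the 30 low members added, all 225 had a median of -0.33, with 160 negative. The medians of single 28-month libraries minus the 18-month library were -0.21, -0.70 and -0.28. For the Schwann cell, macrophage, lymphocyte and adipocyte marker sums, too, the 18-month library lay outside the 28-month range, as given above. So did the sparse keratinocyte sum, at 0.891 CPM against 1.01 to 1.12. It lay inside that range for the muscle (80623 CPM) and red blood cell sums (183 CPM). The sum of 4 fibroblast and matrix markers was inside it as well, at 1366 CPM against 941 to 2558.

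The median was farther from 0 among copies of parents other than cytosolic ribosomal protein genes. The 96 tested copies of such parents, mitochondrial ribosomal protein genes among them, had a median of -0.53. Of these, 86 were negative, and the 18-month library was above all others in 71 (74.0%). The 74 tested ribosomal protein copies had a median of -0.12, with 45 negative and 23 (31.1%) with the 18-month library on top, and without the second 28-month library this median was 0.12. The 25 tested pseudogenes with no parent of that symbol had a median of -0.45, which was 0.07 when all 33 were included. Of the parents themselves, 32 ribosomal ones had a median log2 difference of 0.21 and 83 others one of -0.38. These groups share the 18-month library, and the difference between them was not tested. The lean was not limited to named copies, since 769 tested genes of a pseudogene class without a -ps symbol had a median of -0.44, with 628 (81.7%) negative.

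**Figure D2:**
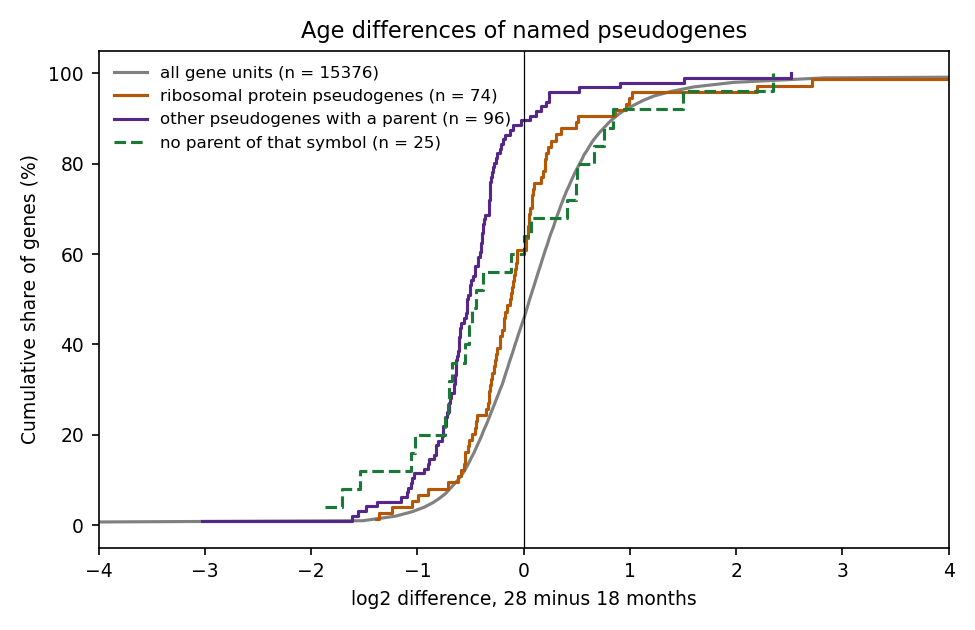
Cumulative share of genes (%, y axis) by log2 difference, 28 minus 18 months (x axis), for all genes tested (grey) and 3 groups of named pseudogenes. The curve of the 96 other pseudogenes with a parent lies left of the grey curve over most of its course, at a median of -0.53 against 0.06, and that of the 74 ribosomal protein copies lies closer to it, at -0.12.

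Fabp3-ps1, a copy of the heart and muscle fatty acid binding protein gene in an intron of Ttc41 (GRCm38 chr10:86731987-86732388, minus strand), had one of the smallest p-values. It differs from its parent at 3 of 402 bases, 2 of them in the coding stretch below (chr10:86732055-86732144), where capitals mark the bases that differ:

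Fabp3-ps1: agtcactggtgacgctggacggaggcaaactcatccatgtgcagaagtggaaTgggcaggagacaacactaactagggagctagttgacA
Fabp3: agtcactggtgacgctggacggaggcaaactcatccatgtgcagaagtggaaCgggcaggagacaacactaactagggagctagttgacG

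Fabp3-ps1 had 38.5, 72.0 and 32.6 CPM at 28 months and 146 at 18 months, and Fabp3 had 27.4, 45.4 and 21.3 CPM at 28 months and 81.0 at 18 months. The 18-month library was the highest for both genes and the second 28-month library came next. The log2 difference was -1.62 ± 0.47 for the pseudogene (edgeR adjusted p = 0.859) and -1.37 ± 0.44 for the parent. The pair's log2 ratio was 0.49, 0.67 and 0.61 at 28 months and 0.85 at 18 months, so that the 18-month ratio was above all others. The copy held 58.5, 61.4 and 60.5% of the pair's counts at 28 months and 64.4% at 18 months.

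Uqcrh-ps1 went with small counts and much lower identity. It lies outside any other gene (chr15:99898289-99898556, minus strand) and is 92.9% identical to Uqcrh, which encodes the hinge subunit of respiratory complex III. The coding stretch of 90 bases with the most differences is shown, with its 8 differing bases in capitals (chr15:99898326-99898415), to show how many marks separate this copy from its parent:

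Uqcrh-ps1: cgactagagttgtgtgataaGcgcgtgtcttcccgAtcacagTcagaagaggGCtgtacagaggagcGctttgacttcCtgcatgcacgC
Uqcrh: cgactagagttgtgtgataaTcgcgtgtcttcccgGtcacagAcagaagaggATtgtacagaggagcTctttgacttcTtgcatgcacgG

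Uqcrh-ps1 had counts of 4, 5 and 4 at 28 months and 32 at 18 months, against 25278 to 38562 for Uqcrh. Only the 18-month library held more than a handful, and its log2 difference of -3.03 ± 0.67 ranked first among the pseudogenes by p (edgeR adjusted p = 0.859). The parent's log2 difference was -0.42 ± 0.34. Their log2 ratio was -12.91, -12.77 and -12.46 at 28 months and -10.21 at 18 months, a difference of -2.50 (SD 0.23 over the 28-month libraries, exact permutation p = 0.25, the smallest that 3 against 1 allow).

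The other pseudogenes with the smallest p on the lower side copy a synthase, a redox protein and a chaperone. Sms-ps, identical to the spermine synthase gene over 1101 bases, had 51.8, 38.0 and 44.5 CPM at 28 months and 80.2 at 18 months, and Sms had 49.3, 33.0 and 43.2 CPM at 28 months and 84.3 at 18 months. Txn-ps1, closest to thioredoxin (Txn1, 95.8% identity), was counted 45, 56 and 37 times at 28 months and 148 times at 18 months, with a log2 difference of -1.87 ± 0.48. Hsp25-ps1, which overlaps an exon of the predicted gene Gm9817 and is 99.4% identical to the small heat shock protein gene Hspb1, was counted 474, 886 and 442 times at 28 months and 1037 times at 18 months. In all of them the 18-month library was above the others. Their nearest coding genes had log2 differences of -1.01 ± 0.31 (Sms), 0.72 ± 0.29 (Txn1) and -0.36 ± 0.33 (Hspb1), none past the threshold.

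Vdac3-ps1 and Mpc1-ps copy genes of mitochondrial transport, the third outer membrane channel and a subunit of the pyruvate carrier. Vdac3-ps1 had 164, 121 and 152 CPM at 28 months and 258 at 18 months, and Vdac3 had 105, 72.2, 89.6 and 147 CPM in that order. The log2 differences were -0.82 ± 0.31 and -0.72 ± 0.31, and the log2 ratio ran only from 0.64 to 0.82 over the 4 libraries. Mpc1-ps had 175, 115 and 139.7 CPM at 28 months and 193 at 18 months, at 2.01 to 2.66 on the log2 scale over Mpc1.

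On the higher side the smallest p belonged to Rps12-ps24, with 16, 33 and 17 counts at 28 months and 4 at 18 months (log2 difference 2.19 ± 0.86, edgeR adjusted p = 0.859). Rps12-ps3, annotated as protein coding and identical to Rps12 over 494 bases, was counted 844, 479 and 589 times at 28 months and 293 times at 18 months. The parent Rps12, of the 40S subunit, was counted 323, 295 and 297 times at 28 months and 147 times at 18 months, so that it too was lowest at 18 months. Hmgb1-ps1, a copy of a chromatin architecture protein gene, was counted 9, 15 and 15 times at 28 months and 4 times at 18 months, whereas Hmgb1 had 3700 to 4631 at 28 months and 6791 at 18 months. Smkr-ps (59, 32, 62 and 17 counts) and Slc2a4rg-ps (41, 270, 22 and 16) are not retrocopies by their annotation, which classes them as a long noncoding RNA and a transcribed unitary pseudogene, and Slc2a4rg-ps was high in the second 28-month library alone.

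Pseudogenes without a parent count of their own were led by Oaz1-ps, a copy of the gene for antizyme 1, which restrains polyamine synthesis. It had 200.0, 85.6 and 171 CPM at 28 months and 167 at 18 months. Its parent, merged with the microRNA gene Mir1982 in the counts, had 34.8 to 74.3 CPM. Rpl3-ps1 (50.4 to 104 CPM), Ube2d-ps (31.3 to 53.9 CPM) and Rpl23a-ps3 (26.4 to 52.1 CPM) were all lowest in the second 28-month library, and Ube2d-ps overlaps an exon of Urgcp, with which it can share reads. Dynlt1-ps1, identical to the dynein light chain gene Dynlt1c over 342 bases, had 25.4, 19.0 and 21.4 CPM at 28 months and 28.6 at 18 months. Amd-ps3, 99.9% identical to Amd1, the S-adenosylmethionine decarboxylase gene, had 12.9, 45.3 and 9.28 CPM at 28 months and 65.3 at 18 months. Amd1 had 79.3, 263 and 51.6 CPM at 28 months and 489 at 18 months, the same order of libraries as its copy.

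The ratio of pseudogene to parent within a library needs no scaling between libraries. Over the 167 pairs the log2 ratio was lower at 28 months by a median of 0.23 (28 minus 18 months -0.23), and single 28-month libraries gave medians of -0.23, -0.19 and -0.22. It was lower at 28 months in 68.3% of pairs. The 18-month ratio lay above all 28-month ratios in 82 pairs (49.1%), below all of them in 30 (18%) and inside their range in 55. The median was -0.29 over 66 ribosomal protein pairs and -0.17 over the 101 others. By identity it was -0.47 between 90 and 95%, -0.38 between 98 and 99% and -0.00065 above 99.5%. A single pair cannot pass, since 3 against 1 libraries give an exact permutation p of 0.25 at best, which 71 of the 167 pairs reached. Were the libraries interchangeable, a share of 0.25 of pairs would reach it, and the same share would have the 18-month ratio on top. The pairs are not independent, since they share the 18-month library and, in part, parents, and the pattern over pairs was not tested.

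**Figure D3:**
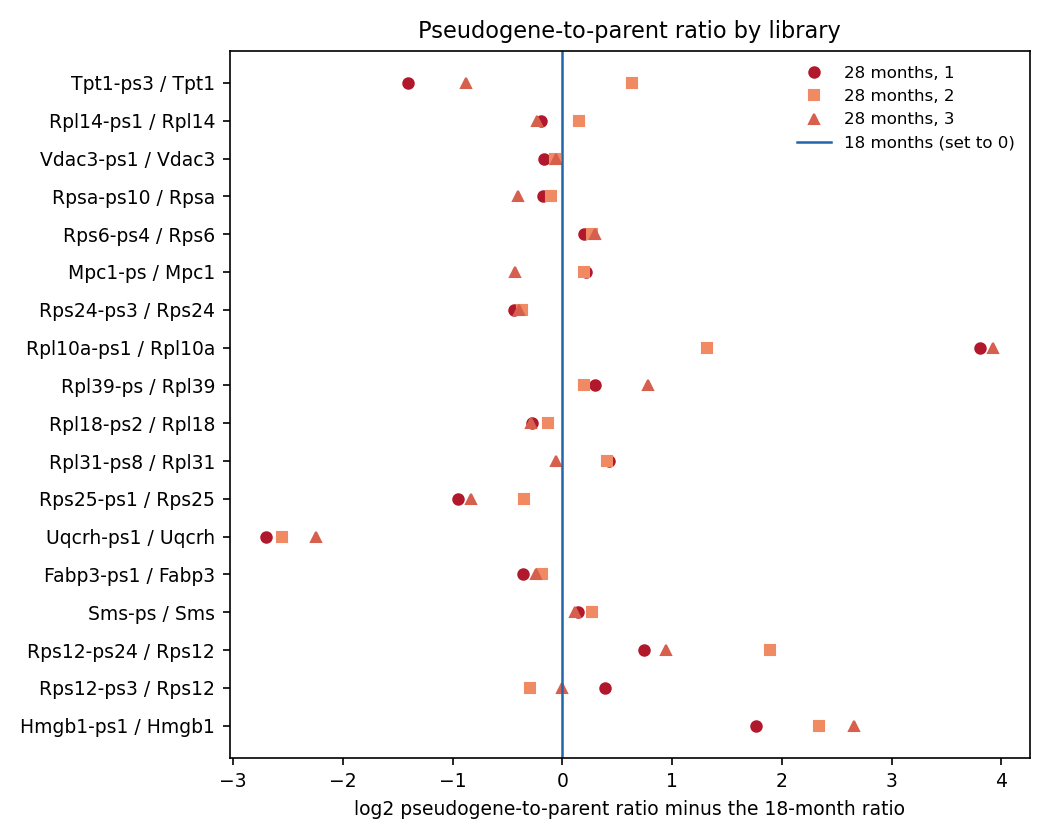
Log2 pseudogene-to-parent count ratio in each 28-month library minus that of the 18-month library (x axis), for the named pairs (y axis). The 18-month library is the line at 0. Uqcrh-ps1 lies left of -2 in all 3 libraries and Rpl10a-ps1 right of 1 in all 3, while Vdac3-ps1 and Rpl14-ps1 stay near the line.

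Rpl10a was the parent whose log2 difference moved most when the counts of its copies were added. Rpl10a encodes a 60S protein, and the copy (GRCm38 chr1:64993951-64994604, minus strand) is identical to its transcript over all 654 bases, of which the first 90 coding bases are shown because the genes cannot be told apart there (chr1:64994515-64994604):

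Rpl10a-ps1: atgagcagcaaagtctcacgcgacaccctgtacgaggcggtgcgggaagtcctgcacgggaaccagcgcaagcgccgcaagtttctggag

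Rpl10a had counts of 150, 491 and 111 at 28 months and 1363 at 18 months, and Rpl10a-ps1 had 11822, 6885 and 9537 at 28 months against 7667 at 18 months. The parent was highest at 18 months by a wide margin, whereas the copy's 18-month value lay inside the range of the others. Taken alone, Rpl10a had a log2 difference of -2.78 ± 0.57, ranked 31 of all genes by p (edgeR adjusted p = 0.859), and DESeq2 called it (adjusted p = 0.0158). Without the second 28-month library edgeR called it too, at -3.34 ± 0.20 (adjusted p = 0.00973).

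Counting the pair as 1 gene gave a value set mostly by the copy, which held most of the counts. The sum therefore cannot tell whether the parent alone differed. With the counts of both its -ps copies added, Rpl10a had 179, 75.6 and 159.8 CPM at 28 months and 139 at 18 months, and its log2 difference was -0.01 ± 0.53 (edgeR adjusted p = 0.998). The copy held 98.7, 93.3 and 98.8% of the pair's counts at 28 months and 84.9% at 18 months. How the aligner placed reads that fit both genes is not given in the sources used here, so that levels of either alone are uncertain.

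Adding the counts of all -ps genes to their parents moved most of the 115 parents little. The median size of the shift was 0.05 on the log2 scale. It was over 0.5 in 11 parents and over 1 in 4, and 19 changed sign. Besides Rpl10a, the 4 were the mitochondrial ribosomal protein gene Mrpl23 (0.88 ± 0.66 alone, -0.34 ± 0.39 summed), Rps13 (0.83 ± 1.13 alone, -0.29 ± 0.36 summed) and Rpl17 (-1.42 ± 0.58 alone, -0.32 ± 0.29 summed), all named after their values were seen. Tpt1 went from 0.58 ± 0.99 to -0.30 ± 0.46. Neither count of these parents passed the test, as 0 genes were called among the 15206 of the summed fit, with 745 at an unadjusted p under 0.05.

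Rps13 was the extreme case, since the parent was counted 4, 29 and 13 times at 28 months and 7 times at 18 months, and Rps13-ps2, identical over 453 bases, had 2499, 2125 and 1685 at 28 months against 2324 at 18 months. The copy thus held 98.7 to 99.8% of the pair's counts in every library. Mrpl23-ps1, identical over 540 bases, was counted 2093, 1656 and 1573 times at 28 months and 2113 times at 18 months, and Mrpl23 had 121, 88 and 109 at 28 months against 53 at 18 months.

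**Figure D4:**
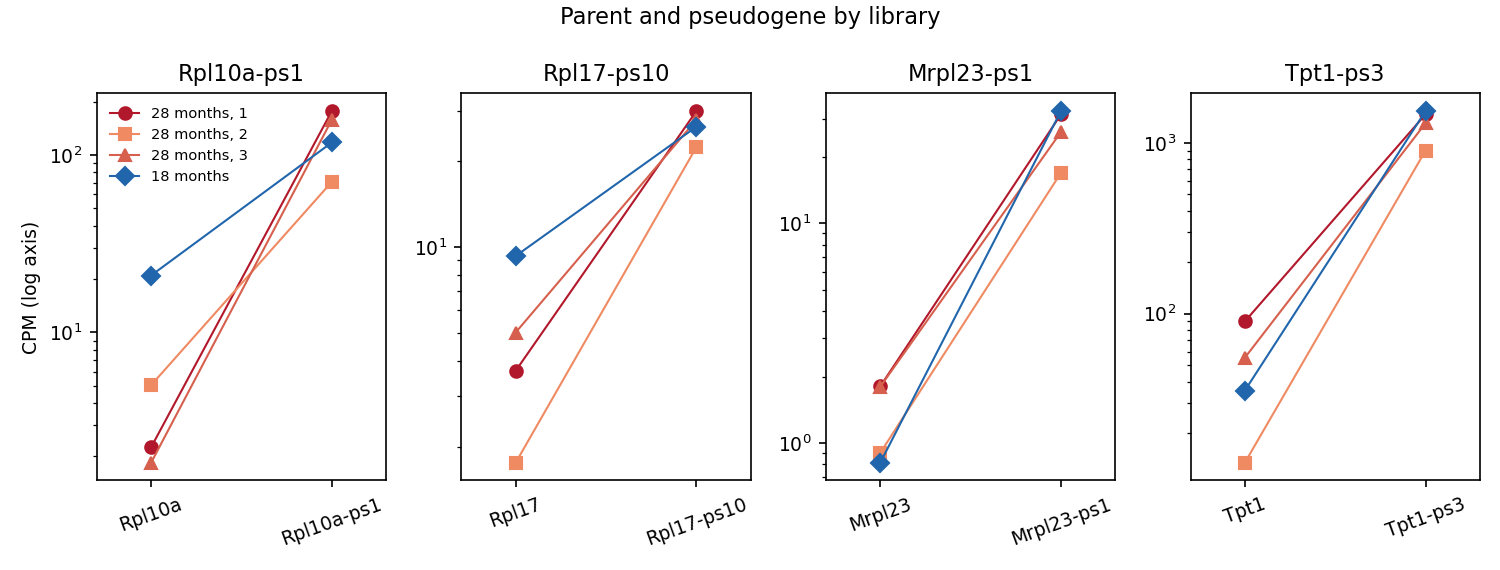
CPM (log axis) of 4 parents and of a copy of each in every library, with lines joining the 2 genes of a library. For Rpl10a and Rpl17 the 18-month parent value is above the 28-month values and the copy's value is not, and for Mrpl23 the 18-month parent value is the lowest and the copy's the highest.

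Gapdh, the glycolytic enzyme gene often used as a reference and the parent of a long series of pseudogenes, gave the opposite case. It was the other parent called by DESeq2 and was named for that. Gapdh had 251, 205 and 184 CPM at 28 months and 1252 at 18 months, with a log2 difference of -2.55 ± 0.32 (edgeR adjusted p = 0.859, DESeq2 adjusted p = 6.41e-08). Its only detected named copy, Gapdh-ps15 on the Y chromosome, had 0.749, 0.215 and 0.679 CPM at 28 months and 0.968 at 18 months. With the -ps copies added the log2 difference stayed at -2.55 ± 0.33, as they held too few counts to move it. Predicted pseudogenes with no -ps symbol were not added.

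Copies of the same parent differed widely in level. Of 8 parents with at least 4 detected copies, Rpsa had 7, and their mean level ran from 200.6 CPM per kb in Rpsa-ps10 (99.3% identity) through 39.7 in Rpsa-ps2 (98.8%) to 0.281 in Rpsa-ps11 (95.7%), with Rpsa at 45.6. Rpl17 had 5, of which Rpl17-ps10 stood at 48.1 CPM per kb and Rpl17-ps9 at 0.704, though both are over 99% identical to Rpl17, itself at 3.72. The 6 copies of Hmgb1 all stood below their parent (13.8 CPM per kb), at 0.197 to 2.12.

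Rps15a, of the 40S subunit, had 6 detected copies with mean levels of 0.229 to 95.8 CPM per kb, against 9.30 for the parent. Shown with the parent are 4 copies that align without a gap to bases 84 to 173 of its coding sequence. They hold 2, 3, 3 and 7 differences there and stood at 63.8, 25.9, 2.10 and 0.229 CPM per kb. This was chosen as the coding stretch of its length with the most differences in Rps15a-ps2, so that the 7 follow from the choice. Rps15a-ps7, the highest at 95.8 CPM per kb, and Rps15a-ps4 at 27.7 are not among the 4. A copy that matched another Rps15a transcript best could be left out even without a gap. Capitals mark the bases that differ from Rps15a, and in the parent each base at which some copy differs (chr5:105797541-105797630 minus, chr11:6172864-6172953 minus, chr4:150847198-150847287 plus and chr19:28742379-28742468 minus, in the order printed):

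Rps15a-ps5: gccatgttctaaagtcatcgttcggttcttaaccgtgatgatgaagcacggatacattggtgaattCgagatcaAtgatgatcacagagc
Rps15a-ps6: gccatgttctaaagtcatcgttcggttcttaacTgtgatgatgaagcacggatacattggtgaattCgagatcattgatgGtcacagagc
Rps15a-ps3: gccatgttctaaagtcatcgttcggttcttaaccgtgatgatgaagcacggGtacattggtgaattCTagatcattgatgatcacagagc
Rps15a-ps2: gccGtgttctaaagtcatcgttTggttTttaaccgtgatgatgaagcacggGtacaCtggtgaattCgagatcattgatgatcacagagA
Rps15a: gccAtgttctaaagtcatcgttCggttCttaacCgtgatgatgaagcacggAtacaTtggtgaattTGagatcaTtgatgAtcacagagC

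Rps15a-ps6 and Rps15a-ps3 hold the same number of differences here and differ in level by a wide margin. Over their whole length they were 98.7 and 98.2% identical to Rps15a. The higher copies Rps15a-ps7 and Rps15a-ps5 were 98.7% identical as well. What sets the levels of the copies was not tested.

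**Figure D5:**
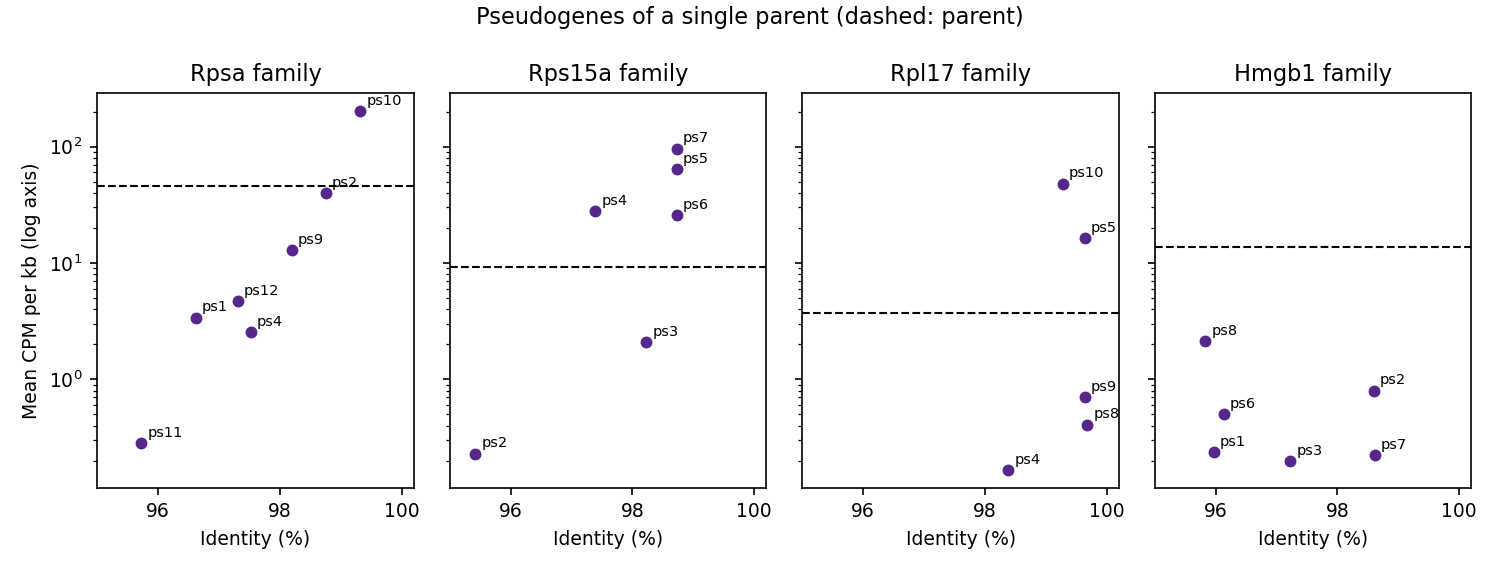
Mean CPM per kb over the 4 libraries (log axis) of each detected copy by its identity to the parent (%), for 4 parents whose level is the dashed line. Copies of Rpsa run from ps11 at 0.281 to ps10 at 200.6, the lowest and highest in identity, with ps4 below ps12 and ps1 in level though above them in identity, those of Rpl17 spread from 0.407 to 48.1 at over 99% identity, and those of Hmgb1 all lie under the line.

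Some copies had most of their counts in a single library. Hmgb1-ps8 had 14, 437 and 19 at 28 months against 19 at 18 months, and Ppp1r2-ps1, a copy of a protein phosphatase inhibitor gene, had 3, 235 and 3 at 28 months against 66 at 18 months. Both were named after their values were seen.

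Leaving out the second 28-month library changed what passed. The edgeR test then called 1799 of 15133 genes (11.9%) and 18 of 194 pseudogenes, of which 13 were lower at 28 months (all genes 4.37%) and 5 higher (all genes 7.52%). On the lower side were Fabp3-ps1 (-2.02 ± 0.15, adjusted p = 0.0142), Amd-ps3 (-2.54 ± 0.20), Amd-ps4 (-2.97 ± 0.43), Hsp25-ps1 (-1.12 ± 0.18), Vdac3-ps1 (-0.69 ± 0.13), Ptges3-ps (-0.83 ± 0.15) and Sms-ps (-0.72 ± 0.15), besides Ppp1r2-ps1, Oaz2-ps, Hspd1-ps3, Rps15a-ps6, Txn-ps1 and Mrps36-ps1. On the higher side were Rpl36-ps12 (1.43 ± 0.19), Rpl36-ps2, Rps12-ps3, Rps10-ps1 and Glns-ps1, of which 4 copy ribosomal protein genes and the last is closest to the glutamine synthetase gene Glul. The spread in that fit came from the remaining pair of 28-month libraries alone. With it, 24 of the parents were called as well, 13 lower and 11 higher, among them Fabp3 (-1.71, adjusted p = 0.0151), Ptges3 (-1.02) and Rpl36 (1.58). For Ppp1r2-ps1, Rps15a-ps6, Rpl36-ps12, Rpl36-ps2, Rps10-ps1 and Glns-ps1 the 18-month value lay inside the range of the 28-month values.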

How the data were processed

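RNA-seq of 4 libraries was used, 3 at 28 months and 1 at 18 months, grouped by the labels. The submitters' processing notes name bcl2fastq 1.8.3, TopHat2 2.0.4 and the build GRCm38. What counter, annotation release and strand setting were used, and how reads with several places were treated, is not given in the sources used here. Deposited values are raw counts per exonic bin. From them, bins were summed per gene, which can count a fragment once for each bin it touches, and 5 special entries that name no gene (3.36 to 5.20% of a library) were left out.

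Symbols, classes and positions came from GENCODE M21. Each pseudogene was aligned to the transcripts of coding genes with BLAST 2.17.0 (e-value up to 1e-05), and coding sequences were read from the same release. Genes with a mean count of at least 10 were tested with edgeR 4.0.16 (quasi-likelihood, TMM, R 4.3.3) over all 4 libraries, with Benjamini-Hochberg adjustment over all genes tested and a threshold of 0.05. The fit had 2 residual degrees of freedom. Ratios to the parent used a pseudocount of 0.5 counts and an exact two-sided permutation test over the libraries. The test was checked on simulated data. With the spread of all 4 libraries it called 2, 28, 90 and 94% of genes changed by 1, 2, 3 and 4 on the log2 scale. Most changes of the size seen in the pseudogenes would thus not pass. Every simulated gene had the same common spread, and the changed genes were drawn from the better counted ones only. Recovery for low copies, or for genes that spread more than the common value, was not simulated and may be lower.

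Members and lists were chosen with earlier results of these data known. Named were members past the threshold, the 12 most abundant with a parent count of their own, 6 of lowest p per direction, the 3 on each side of the count threshold, and the 6 most abundant with no such parent count; any other name was chosen after its values were seen. Alternatives were DESeq2 1.42.0 size factors and Wald test, no TMM factor, other count filters and pseudocounts, leaving out each 28-month library, pairs that overlap no other gene and, added after the data were seen, pseudogene counts summed with the parent's and parents in merged units. A few of the genes so named are not reported here.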

Additional observations from a re-analysis of the deposited data

How the results depend on the processing

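No paired analysis was possible because the 18-month group is a single library with no replicate number shared with the 28-month libraries. The number of genes called was 0 in the main edgeR fit, 31 with the DESeq2 Wald test, and 0 to 1799 when a 28-month library was left out, the highest without the second. For the named pseudogenes it was 0 to 18 when a library was left out, and 0 under every other alternative run. For their parents it was 0 in the main fit, 2 with the DESeq2 Wald test, and 0 to 24 when a library was left out. The cause was not tested. The pseudogenes' median log2 difference (-0.37) ran from -0.47 to -0.27 and the median ratio difference (-0.23) from -0.23 to -0.21 over the alternatives.

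Of 238 values of 30 named pseudogenes under the alternatives, 217 kept direction and side of the threshold, 7 passed the threshold only without the second 28-month library, and 14 reversed, all of pseudogenes near 0 with every library. Without a TMM factor Rpsa-ps10 had -0.015. Over the fits that left out a library, Rpsa-ps10 ran from -0.20 to 0.41, Rpl10a-ps1 from -0.042 to 0.53, Rpl39-ps from -0.18 to 0.26, Rpl18-ps2 from -0.012 to 0.53, Rpl31-ps8 from -0.31 to 0.22, Rps25-ps1 from -0.25 to 0.12, Oaz1-ps from -0.38 to 0.17, Rpl3-ps1 from -0.29 to 0.17, Ube2d-ps from -0.11 to 0.28 and Rpl23a-ps3 from -0.16 to 0.31. Depth limits the low copies most: 30 pseudogenes under a mean of 10 counts were tested only under the lower filters.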
